A study of Mus musculus with 12 samples.

Results

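The genes described here encode the machinery that writes N6-methyladenosine (m6A) into RNA. The 9 members are Mettl3, Mettl14, Wtap, Virma, Zc3h13, Rbm15, Rbm15b and Cbll1, which encode the subunits of the nuclear methyltransferase complex, and Mettl16, which encodes a separate m6A methyltransferase. They were chosen by gene symbol, and each symbol had 1 row among the 55487 genes of the expression table. All 9 passed the filter on low values that left 15968 genes for testing.

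The samples came from 3T3-L1, a line of mouse preadipocytes derived from fibroblasts, which become fat cells after confluent cultures are given a hormone cocktail. Cells carried a lentiviral hairpin with a scrambled sequence (shScram) or a hairpin against Fto (shFto), were selected with puromycin, and were collected as preadipocytes (Pre), during mitotic clonal expansion (MCE) and after differentiation (Diff). The shScram cells carry the same kind of vector as the shFto cells, and which hairpin against Fto was sequenced is not named in the sources used here. Each of the 6 groups had 2 libraries, and nothing says that they came from separate cultures, so p-values measure the spread between these libraries, which may be technical. FTO is an enzyme that removes m6A, and the comparison asks how the genes of the writing machinery were expressed when Fto was depleted and as the cells differentiated.

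In the complex METTL3 is the catalytic subunit and takes the methyl group from S-adenosylmethionine (SAM). METTL14 is its structural partner, which binds RNA and holds METTL3 in its active form but does not itself catalyse the reaction. WTAP brings this pair to nuclear speckles, VIRMA is a large scaffold, ZC3H13 links WTAP to the RNA-binding proteins RBM15 and RBM15B, and CBLL1 (Hakai) is a RING-finger protein of the same assembly. METTL16 acts outside this complex, on U6 small nuclear RNA and on hairpins of the Mat2a mRNA, whose product makes SAM. In 3T3-L1 cells m6A and its enzymes are studied for their part in adipogenesis.

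The difference in role between METTL3 and METTL14 can be seen in their coding sequences, shown because Mettl14 had the largest difference between the lines in the mean over stages and Mettl3 is its partner. The windows were read from the GENCODE M21 transcripts on GRCm38, 5′ to 3′ in the sense of the minus-strand mRNA. Capitals mark the 4 codons of the catalytic motif DPPW in METTL3 and of the sequence EPPL that stands in its place in METTL14.
Mettl3: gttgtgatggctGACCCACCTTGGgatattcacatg
Mettl14: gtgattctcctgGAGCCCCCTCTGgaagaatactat

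The Mettl3 window lies at chr14:52297569-52297604 in exon 6 of 11 of transcript Mettl3-201, and its capitals encode residues 395 to 398 of 580. The Mettl14 window lies at chr3:123374793-123374828 in exon 7 of 11 of Mettl14-201, and its capitals encode residues 192 to 195 of 456. Each motif occurs 1 time in its protein. Both windows are coding sequence.

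Levels are given in TPM, a share of all transcripts corrected for transcript length, which allows genes to be compared. On this scale Wtap was the most abundant member in 12 of 12 libraries, with a mean of 59.7 TPM. Virma followed with 32.5, then Rbm15b with 25.9, Zc3h13 with 23.2, Mettl3 with 19.6, Mettl14 with 15.8, Rbm15 with 15.4, Mettl16 with 9.10 and Cbll1 with 8.35 TPM. The ranges of Wtap and Virma did not overlap, and Rbm15 was above Mettl16 in 12 of 12 libraries. Every other pair of neighbours in this order had overlapping ranges. Mettl14 stood above Rbm15 in 4 of 12 libraries although its mean was higher.

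Replicate 1 of shScram at Pre stood apart from the other libraries. Over the tested genes, log2(TPM + 1) correlated with r = 0.939 between the 2 shScram Pre libraries and 0.990 to 0.993 within the other 5 groups, and the gap between these libraries ran with transcript GC content (Spearman rho = -0.688 over genes, which do not count as independent replicates). Members at the ends of the GC range differed most in that direction, with exceptions between them. Rbm15b, the member richest in GC at 56.4%, read 10.5 TPM in replicate 1 and 27.8 in replicate 2. Cbll1, at 40.0% GC, read 12.8 and 7.19 TPM, and Wtap, at 39.6%, read 92.1 and 65.5 TPM. Against this order Zc3h13, at 50.1% GC, was higher in replicate 1, with 30.4 and 21.5 TPM (a log2 difference of 0.476), and Rbm15, at 44.2%, was lower there (-0.174). The median absolute difference between replicates over the 9 members was 0.312 on the log2 scale in this group and 0.0748 over the other 5 groups. This library is left out as an alternative to the reported values, which use all 12 libraries.

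**Figure D1:**
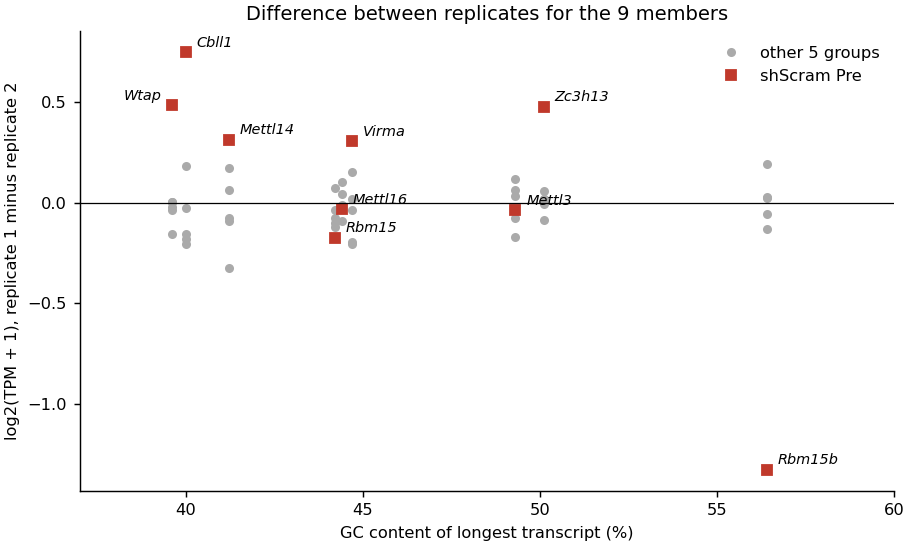
Difference between replicate 1 and replicate 2 in log2(TPM + 1) on the y axis against the GC content of the longest transcript in percent on the x axis, for the 9 members. Red squares are the shScram Pre group and grey points the other 5 groups, whose largest absolute difference was 0.325, whereas Rbm15b in the shScram Pre group was at -1.33.

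The labels were checked against expression. Fto was between 52.7 and 73.5 TPM in the 6 shScram libraries and between 5.51 and 7.47 TPM in the 6 shFto libraries. The groups did not overlap, and the mean log2 difference over the stages was -3.09 (exact permutation test within stages, two-sided, p = 0.00926, the smallest this design allows). The 6 preadipocyte or fibroblast markers summed to 2804 TPM or more in every library. The 8 adipocyte markers summed to 1579 to 1592 TPM in shScram at Diff and to 442 to 477 TPM in shFto at Diff. Within this list Lpl differed from the rest, since its shFto mean at Diff was 86.6% of the shScram mean (276 against 318 TPM). The other adipocyte markers were at 1.32% (Cd36) to 40.7% (Pparg) of it. Averaged over the stages, Lpl was higher in shFto cells by a log2 difference of 0.64. The 8 markers of dividing cells were highest at MCE in both lines. The 5 leukocyte markers summed to at most 4.06 TPM, with Cd68 up to 3.04 and Csf1r up to 1.40 TPM, and the 3 endothelial markers to at most 0.651 TPM. Among them Adgre1 and Kdr were at 0 in all 12 libraries. In such bulk samples fewer cells of a type and less RNA per cell cannot be told apart.

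Among the catalytic pair, Mettl14 was called lower in shFto than in shScram cells and Mettl3 was not called in the reported values. In shScram cells Mettl14 read 30.1 and 24.0 TPM at Pre, 11.9 and 15.2 at MCE and 17.7 and 16.9 at Diff. In shFto cells it read 15.5 and 16.6 TPM at Pre, 10.0 and 8.76 at MCE and 11.2 and 11.9 at Diff. At each stage both shFto libraries lay below both shScram libraries.

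Averaged over the stages, Mettl14 was lower in shFto cells by a log2 difference of -0.58 (SE 0.0931, 95% interval -0.79 to -0.37). This was called, with an adjusted p of 0.00138 (limma across all tested genes with Benjamini-Hochberg adjustment, as for every adjusted p here). It was called under all 22 processing alternatives that give this contrast, with values from -0.67 to -0.43 and adjusted p from 4.47e-05 to 0.00695. Without replicate 1 of shScram at Pre it was -0.52 (adjusted p = 0.000261).

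By stage, the Mettl14 level in shFto cells was 59.4% of that in shScram cells at Pre, 69.3% at MCE and 66.8% at Diff. The log2 differences were -0.71 at Pre (SE 0.161, adjusted p = 0.0151), -0.48 at MCE (SE 0.161, adjusted p = 0.0751) and -0.54 at Diff (SE 0.161, adjusted p = 0.0421). The Pre and Diff differences were called and the MCE difference was not. On all 12 libraries the Diff call was lost under median-ratio scaling (adjusted p = 0.0692), with the replicate number as a block (adjusted p = 0.0668) and without the filter. Fitted on the libraries of the contrast alone, the difference at Pre was not called (adjusted p = 0.271). The call at Pre was lost after a correction for GC content (-0.35, adjusted p = 0.0926) and without either shFto Pre library (adjusted p 0.0604 and 0.0948). The call at Diff was lost without any 1 of 8 libraries, which were those of both lines at Diff and of shFto at Pre and MCE (adjusted p 0.0658 to 0.186). The difference at MCE was called without replicate 1 of shScram at Pre (adjusted p = 0.0114). The change of the knockdown difference from Pre to MCE was 0.23 (95% interval -0.29 to 0.75) and from MCE to Diff -0.06 (-0.58 to 0.45), neither of them called.

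Mettl3 read 22.2 and 22.8 TPM at Pre, 18.8 and 19.8 at MCE and 21.5 and 19.8 at Diff in shScram cells. The shFto libraries read 19.6 and 18.8 TPM at Pre, 20.2 and 19.7 at MCE and 15.1 and 17.2 at Diff. The shFto libraries lay below the shScram libraries at Pre and Diff, and the lines overlapped at MCE. The log2 difference averaged over stages was -0.17 (95% interval -0.33 to -0.02, adjusted p = 0.0714) and that at Diff was -0.34 (-0.60 to -0.07, adjusted p = 0.0788), neither past the threshold. Without replicate 1 of shScram at Pre both were called, at -0.18 (adjusted p = 0.0265) and -0.34 (adjusted p = 0.0155). On all 12 libraries, the mean over stages was also called under the GC correction (-0.21, adjusted p = 0.0146) and median-ratio scaling (-0.22, adjusted p = 0.0354). Quantile normalization gave a call as well (-0.29, adjusted p = 0.0157), and 7 of 22 alternatives in all called it. The difference at Diff was called after the GC correction (-0.36, adjusted p = 0.0241). Mettl3 overlaps Tox4 on the other strand, and since the use of strand in the counting is not stated, its values are uncertain to that extent.

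Within a library the ratio of 2 genes does not depend on a scaling factor shared by all genes. It can move under quantile normalization and the GC correction, and Mettl14 (41.2% GC) and Mettl3 (49.3% GC) differ in GC content. At Pre the GC-corrected knockdown differences were -0.35 for Mettl14 and -0.28 for Mettl3, against -0.71 and -0.22 as reported. The ratios below are from uncorrected TPM. The Mettl14 to Mettl3 ratio was 1.35 and 1.05 in shScram at Pre, 0.634 and 0.765 at MCE and 0.823 and 0.855 at Diff. With the Fto hairpin it was 0.792 and 0.886 at Pre, 0.496 and 0.445 at MCE and 0.740 and 0.693 at Diff. At every stage the shFto libraries had the lower ratios without overlap, and each line was lowest at MCE. It is given as a description, chosen after the values of both genes were known.

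**Figure D2:**
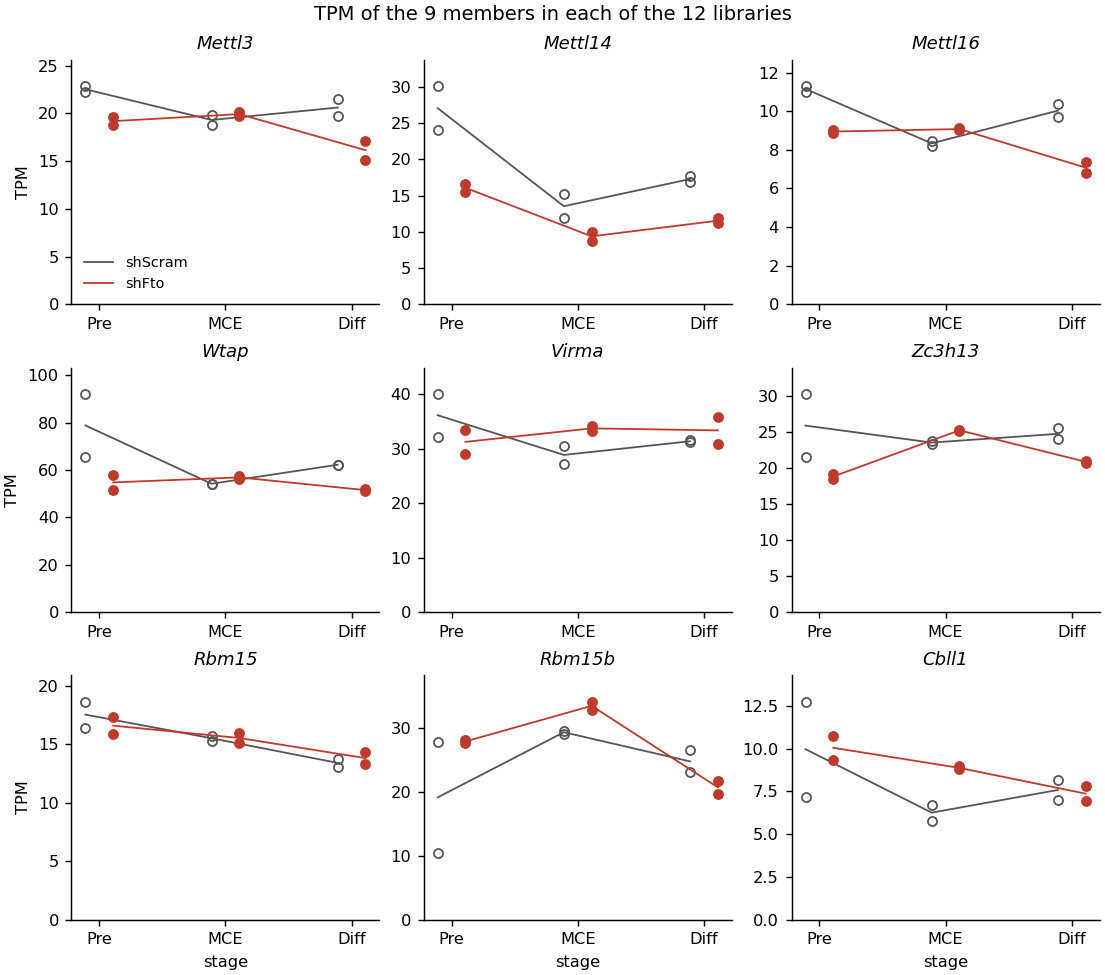
TPM (y axis, from 0, with its own scale in each panel) of the 9 members at the 3 stages (x axis) in each of the 12 libraries, with open grey circles for shScram, filled red circles for shFto and lines through the means of the 2 libraries. Mettl14 lies lower in shFto at each stage, from 8.76 to 16.6 TPM against 11.9 to 30.1 TPM, and the 2 shScram Pre libraries of Rbm15b, Wtap, Zc3h13 and Cbll1 lie far apart.

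Of the 9 members, 2 were called in the mean over stages, Mettl14 and Mettl16, both lower in shFto cells. Among all tested genes 42.8% were called in this comparison and 18.3% were called lower. The median log2 difference was -0.17 over the members and 0.06 over all tested genes. When replicate 1 of shScram at Pre was left out, 5 of 9 were called, with Mettl14, Mettl16, Mettl3 and Wtap lower and Cbll1 higher, beside 56.6% of all tested genes. At Pre 2 of 9 members were called, Mettl14 and Wtap, both lower, beside 28.2% of all tested genes called and 12.3% called lower. At MCE 0 of 9 were called (1 of 9, Mettl14, at an unadjusted p under 0.05), beside 17.8% of all tested genes. At Diff 2 of 9 were called, Mettl14 and Mettl16, both lower, beside 21.2% of all tested genes called and 9.31% called lower.

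At Diff the count moved with the shScram Pre libraries, which enter this comparison through the shared estimate of the spread. Leaving out replicate 1 of them, 6 of 9 members were called, each lower in shFto cells, beside 20.4% of all tested genes called lower. They were Mettl14, Mettl16 (-0.45), Mettl3 (-0.34), Wtap (-0.27), Rbm15b (-0.25) and Zc3h13 (-0.23), with adjusted p of 0.00542, 0.00707, 0.0155, 0.0109, 0.0482 and 0.0348. Without replicate 2 the count was 5, with Rbm15b no longer called (adjusted p = 0.0506), and without both it was 6, each beside 20.4% of all tested genes called lower. The log2 differences of Virma, Rbm15 and Cbll1 at Diff were 0.08, 0.04 and -0.04 and were not called. Marker sums also differed between the lines at this stage. The adipocyte sums are given above, and the markers of dividing cells summed to 286 to 314 TPM in shFto against 153 to 163 TPM in shScram cells. The preadipocyte or fibroblast markers summed to 7564 to 7905 against 4255 to 4421 TPM. Of these, Col3a1, Ly6a and Thy1 were called higher in shFto cells at Diff, and Dlk1, Pdgfra and Col1a1 were not called. The part of these marker differences in the member values was not tested.

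**Figure D3:**
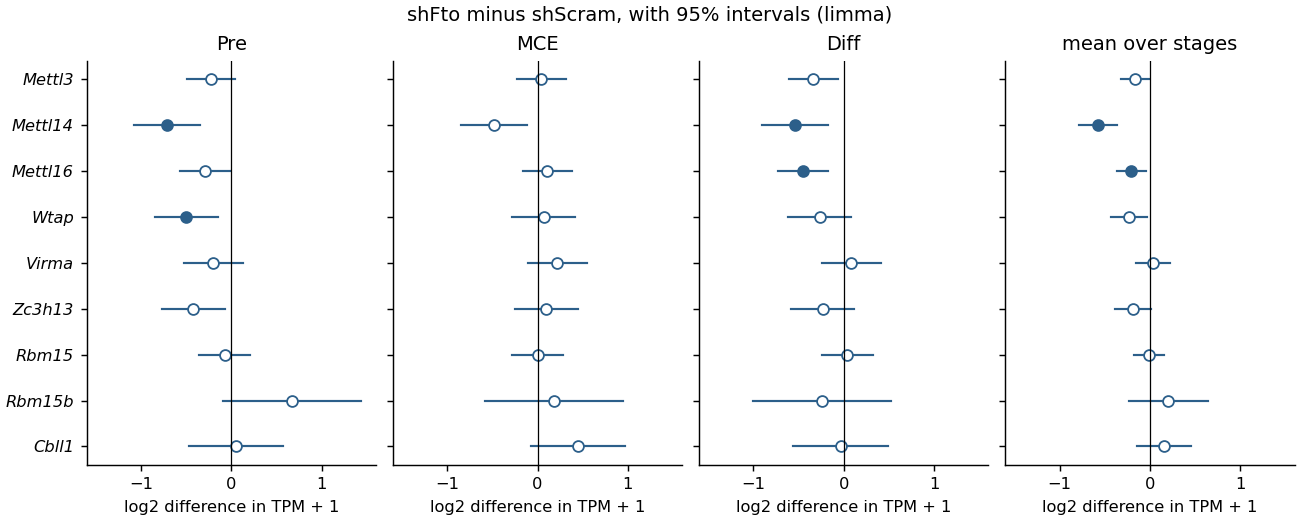
Log2 difference in TPM + 1 between shFto and shScram cells (x axis) for the 9 members (y axis) at each stage and as the mean over stages, with 95% intervals from limma on all 12 libraries. Filled points have an adjusted p under 0.05, which holds for Mettl14 at Pre, Diff and in the mean, for Mettl16 at Diff and in the mean, and for Wtap at Pre, and the intervals of Rbm15b are the widest.

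Mettl16, the separate methyltransferase, was called lower in shFto cells at Diff and in the mean over stages. It read 11.0 and 11.3 TPM at Pre, 8.47 and 8.20 at MCE and 9.68 and 10.4 at Diff in shScram cells. Levels in shFto cells were 8.86 and 9.03 TPM at Pre, 9.03 and 9.12 at MCE and 7.36 and 6.79 at Diff. The lines did not overlap at any stage, with shFto lower at Pre and Diff and higher at MCE.

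The log2 difference of Mettl16 was -0.29 at Pre (adjusted p = 0.101), 0.11 at MCE (adjusted p = 0.615) and -0.45 at Diff (SE 0.122, adjusted p = 0.0296), of which the difference at Diff was called. Averaged over the stages it was -0.21 (SE 0.0703, adjusted p = 0.0395). The call at Diff was lost without any 1 of 6 libraries, those of both lines at Diff and of shFto at MCE (adjusted p 0.0614 to 0.179). The call in the mean was lost without any 1 of the 10 libraries other than shScram at Pre (adjusted p 0.0659 to 0.107). On all 12 libraries the call in the mean was also lost after the GC correction (-0.15, adjusted p = 0.102). With the replicate number as a block the calls in the mean (adjusted p = 0.0619) and at Diff (adjusted p = 0.0522) were lost. The knockdown difference changed from MCE to Diff by -0.56 (95% interval -0.95 to -0.17, adjusted p = 0.150), which was not called in the reported values.

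Mat2a, the METTL16 target that encodes the SAM-producing enzyme, was lower in shFto cells at all 3 stages. The site METTL16 recognises, TACAGAGAA in DNA letters, was searched on the sense strand and occurred 5 times in transcript Mat2a-202, each time in exon 8 of 8, in the 3′ UTR. It occurred in 4.16% of the longest transcripts of 21901 protein-coding genes, and Mat2a was the 1 gene with 5 or more. A match to these letters is a description and not a measured methylation site. Of the 5 sites, the ones nearest to and farthest from the stop codon are shown with the motif in capitals, at chr6:72434235-72434263 and chr6:72432938-72432966 on the minus strand of GRCm38, from GENCODE M21.
Mat2a site nearest the stop codon: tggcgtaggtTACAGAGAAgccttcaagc
Mat2a site farthest from the stop codon: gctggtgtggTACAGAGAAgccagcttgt

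Mat2a read 343 and 301 TPM at Pre, 225 and 208 at MCE and 250 and 272 at Diff in shScram cells. The shFto levels were 181 and 207 TPM at Pre, 127 and 126 at MCE and 191 and 194 at Diff. The lines did not overlap at any stage. The log2 differences were -0.73 (adjusted p = 0.00426), -0.77 (adjusted p = 0.00286) and -0.43 (adjusted p = 0.0328), all called. The call at Diff was lost without any 1 of the 8 libraries of both lines at MCE and Diff (adjusted p 0.0522 to 0.189). The mean over stages was -0.64 (SE 0.0695, adjusted p = 0.000152) and was called under all 22 alternatives. Mettl16 differed by -0.29 at Pre, 0.11 at MCE and -0.45 at Diff, so at MCE the signs of the 2 genes were opposite. A relation between the Mettl16 and Mat2a levels was not tested.

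**Figure D4:**
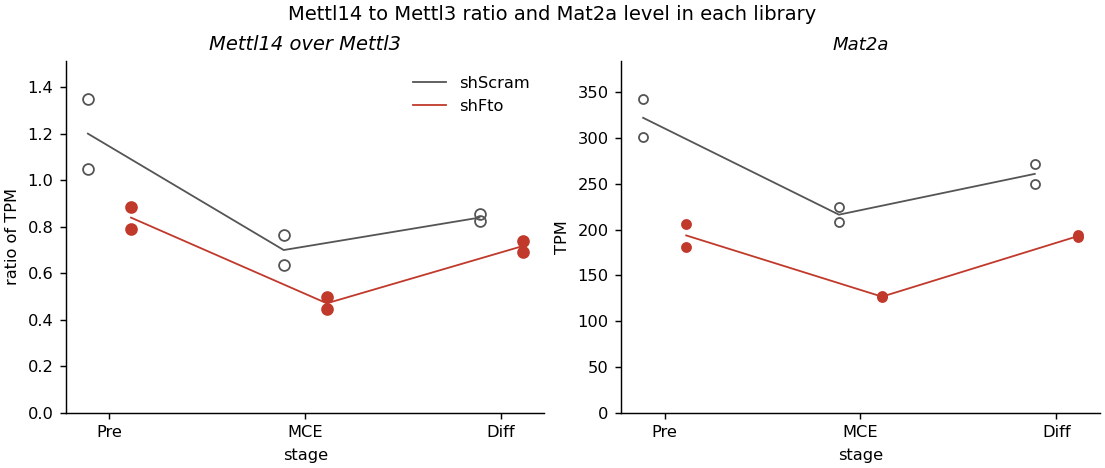
The Mettl14 to Mettl3 ratio of TPM (left) and the Mat2a level in TPM (right), both on y axes from 0, at the 3 stages (x axis) in each library, with open grey circles for shScram, filled red circles for shFto and lines through the means of the 2 libraries. The shFto points lie below the shScram points of the same stage, with ratios of 0.445 to 0.886 against 0.634 to 1.35.

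Wtap was the regulatory subunit with a knockdown call in the reported values. It read 92.1 and 65.5 TPM at Pre, 54.3 and 54.2 at MCE and 62.3 and 62.2 at Diff in shScram cells. In shFto cells it stayed between 51.1 and 57.8 TPM in all 6 libraries. The lines did not overlap at Pre, where shFto cells were lower by a log2 difference of -0.50 (SE 0.154, adjusted p = 0.0415). Without replicate 1 of shScram at Pre the difference was -0.26 (adjusted p = 0.0490), and after the GC correction it was -0.07 (adjusted p = 0.545). The call was also lost without any 1 of the 10 libraries other than shScram at Pre (adjusted p 0.0658 to 0.197).

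The scaffold Virma and the adaptor Zc3h13 were not called in the reported knockdown values. Virma ranged from 27.3 to 40.1 TPM over the 12 libraries, and its difference in the mean over stages was 0.03 (95% interval -0.15 to 0.22). It overlaps the antisense gene Gm11831. At Pre, Zc3h13 read 30.4 and 21.5 TPM with the scrambled hairpin and 19.3 and 18.5 with the Fto hairpin, a log2 difference of -0.42 (adjusted p = 0.0697). Without the outlying replicate 1 it was -0.18 (adjusted p = 0.189), without replicate 2 it was -0.66 (adjusted p = 0.000169), and after the GC correction it was -0.54 (adjusted p = 0.0487).

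The paralogs Rbm15 and Rbm15b, which recruit the complex to RNA, had different profiles. Rbm15 ranged from 13.0 to 18.6 TPM and differed between the lines by -0.01 in the mean over stages (95% interval -0.17 to 0.15). Rbm15b read 10.5 and 27.8 TPM at Pre in shScram cells, 29.6 and 29.1 at MCE and 26.5 and 23.1 at Diff. The shFto libraries read 28.2 and 27.6 TPM at Pre, 32.8 and 34.2 at MCE and 19.7 and 21.7 at Diff. Its log2 difference at Pre was 0.67 (95% interval -0.09 to 1.43, adjusted p = 0.154). That value rested on the outlying library. It was 0.00 (adjusted p = 0.988) without replicate 1 of shScram at Pre and 1.33 (adjusted p = 3.17e-06) without replicate 2. Rbm15b overlaps Manf on its own strand and Dcaf1 on the other, so reads could be shared.

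Cbll1 was not called in the reported knockdown values, but was called higher in shFto cells in 3 of the 4 knockdown comparisons after the GC correction. At Pre the log2 difference was 0.06 (95% interval -0.47 to 0.58) as reported and 0.47 (adjusted p = 0.0180) with the correction. In the mean over stages it was 0.16 as reported (adjusted p = 0.366), 0.34 (adjusted p = 0.00318) with the correction and 0.28 (adjusted p = 0.0166) without replicate 1 of shScram at Pre. Its MCE levels were 6.72 and 5.80 TPM with the scrambled hairpin against 8.78 and 8.96 TPM with the Fto hairpin, with no overlap and a log2 difference of 0.45 (95% interval -0.08 to 0.97, adjusted p = 0.238). Without replicate 1 of shScram at Pre the same difference was called (adjusted p = 0.0231), and after the GC correction it was called at 0.49 (adjusted p = 0.0150). At Diff the lines overlapped, with 6.97 and 8.19 against 6.92 and 7.82 TPM. Cbll1 overlaps the antisense gene Gm29542.

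From Pre to MCE, Mettl14 was lower at MCE in both lines. Stage comparisons carry a shift that holds for the table as a whole, since the median over all tested genes was -0.17 in shScram and -0.18 in shFto cells for this step, and 0.23 and 0.17 for the step from MCE to Diff. Scaling by the median ratio brought these 4 medians to between -0.003 and 0.01. Of the calls from Pre to MCE, 31.1% were higher in shScram and 30.6% in shFto cells, and after that scaling 53.1% and 50.1%. From MCE to Diff the shares were 79.3% and 75.7%, and after the scaling 51.4% and 54.8%.

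In shScram cells Mettl14 fell from a mean of 27.1 ± 4.28 to 13.5 ± 2.31 TPM from Pre to MCE (SD, n = 2), a log2 difference of -0.95 (SE 0.161, adjusted p = 0.00222). The difference was -0.79 (adjusted p = 0.00197) without replicate 1 of shScram at Pre and -0.40 (adjusted p = 0.0468) after the GC correction. The call was lost with the GC correction and without that library together (-0.45, adjusted p = 0.0526). Fitted on the libraries of the contrast alone, the shScram difference was also not called (adjusted p = 0.128). In shFto cells Mettl14 fell from 16.1 ± 0.764 to 9.39 ± 0.885 TPM (SD, n = 2), a log2 difference of -0.72 (SE 0.161, adjusted p = 0.00978). This call was lost under median-ratio scaling (-0.50, adjusted p = 0.0774), under quantile normalization (-0.48, adjusted p = 0.111) and without replicate 2 of shFto at Pre or MCE (adjusted p 0.0680 and 0.0828). The sums of the markers of dividing cells were higher at MCE than at Pre, 782 to 833 against 282 to 293 TPM in shScram and 673 to 713 against 247 to 263 TPM in shFto cells, and their part in the Mettl14 values was not tested.

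In shScram cells 3 of 9 members were called from Pre to MCE, Mettl14, Wtap (-0.51, adjusted p = 0.0279) and Mettl16 (-0.38, adjusted p = 0.0355), all lower at MCE. The background was 39.1% of all tested genes called and 26.9% called lower. After the GC correction Wtap was at 0.094 and Mettl16 at 0.021, neither called. Wtap was -0.27 (adjusted p = 0.0266) without replicate 1 of shScram at Pre, and its call was lost without either shScram MCE library (adjusted p 0.0992 and 0.113). The Mettl16 call was lost without any 1 of the 10 libraries other than shScram at Pre (adjusted p 0.0537 to 0.144).

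Rbm15b went the other way in this step, at 0.74 (adjusted p = 0.111) in the reported values. It was called under median-ratio scaling (0.96, adjusted p = 0.0337), quantile normalization (0.83, adjusted p = 0.0411) and the GC correction (0.50, adjusted p = 0.0153). Without replicate 1 of shScram at Pre it was 0.07 (adjusted p = 0.610). Under both scalings Wtap and Mettl16 were not called, with -0.29 (adjusted p = 0.234) and -0.18 (adjusted p = 0.288) under the median ratio and -0.38 (adjusted p = 0.123) and -0.24 (adjusted p = 0.216) under quantiles. The 2 members called under each of these 3 settings were Mettl14, lower, and Rbm15b, higher, beside 37.8%, 35.5% and 43.8% of all tested genes.

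In shFto cells 1 of 9 members was called from Pre to MCE, Mettl14, beside 28.7% of all tested genes called and 19.9% called lower. Zc3h13 went from 19.3 and 18.5 to 25.2 and 25.4 TPM in these cells, a log2 difference of 0.40 (adjusted p = 0.0831) that was called without replicate 1 of shScram at Pre (adjusted p = 0.00178). On all 12 libraries Zc3h13 was also called under median-ratio scaling (0.63, adjusted p = 0.0335), where Mettl14 was not, beside 28.3% of all tested genes. After the GC correction Zc3h13 (0.59, adjusted p = 0.0278), Rbm15b, Virma and Wtap were called higher and Mettl14 lower, beside 38.2% of all tested genes. The difference between the lines in the step from Pre to MCE was called for 0 of 9 members (3 at an unadjusted p under 0.05, Mettl16, Wtap and Zc3h13), beside 5.11% of all tested genes.

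From MCE to Diff 0 of 9 members were called in shScram cells (0 at an unadjusted p under 0.05), beside 25.2% of all tested genes. There Rbm15 was called lower at Diff under median-ratio scaling (-0.45, adjusted p = 0.0221), quantile normalization (-0.43, adjusted p = 0.0369) and the GC correction (-0.48, adjusted p = 0.0246). Rbm15b was called lower after the GC correction (-0.42, adjusted p = 0.0427). All tested genes called lower in these settings were 11%, 8.75% and 16.6%. In shFto cells 0 of 9 were called (2 at an unadjusted p under 0.05, Mettl3 and Mettl16), beside 26.7% of all tested genes. On the same 12 libraries, median-ratio scaling called 3 members in shFto cells (Mettl16, Mettl3 and Rbm15), quantile normalization 2 (Mettl16 and Mettl3) and the GC correction 7 (all but Mettl14 and Zc3h13). All of these were lower at Diff, beside 12.7%, 11.3% and 22.3% of all tested genes called lower. The member median in shFto cells was -0.24 in this step as reported, while the median of all tested genes was 0.17.

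Without replicate 1 of shScram at Pre, 4 of 9 members were called in the shFto step from MCE to Diff, all lower at Diff, beside 16.4% of all tested genes called lower. Rbm15b was at -0.67 (adjusted p = 0.000197), Mettl16 at -0.32 (adjusted p = 0.0317), Mettl3 at -0.29 (adjusted p = 0.0270) and Zc3h13 at -0.26 (adjusted p = 0.0191). In the shFto libraries themselves Rbm15b went from 32.8 and 34.2 TPM at MCE to 19.7 and 21.7 TPM at Diff, without overlap. The difference between the lines in this step was called for 0 of 9 members in the reported values (1 at an unadjusted p under 0.05, Mettl16), beside 2.49% of all tested genes.

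No member differed by more than 1 on the log2 scale in the reported values of the 10 comparisons, where the largest absolute value was 0.949. The settings of the fit mattered for many of the smaller differences. Among the 10 called differences, those of Wtap and Mettl16 from Pre to MCE in shScram cells reversed with the GC correction. The others kept their direction under each alternative that was run, and Mettl14 averaged over stages also stayed called under all 22.

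**Figure D5:**
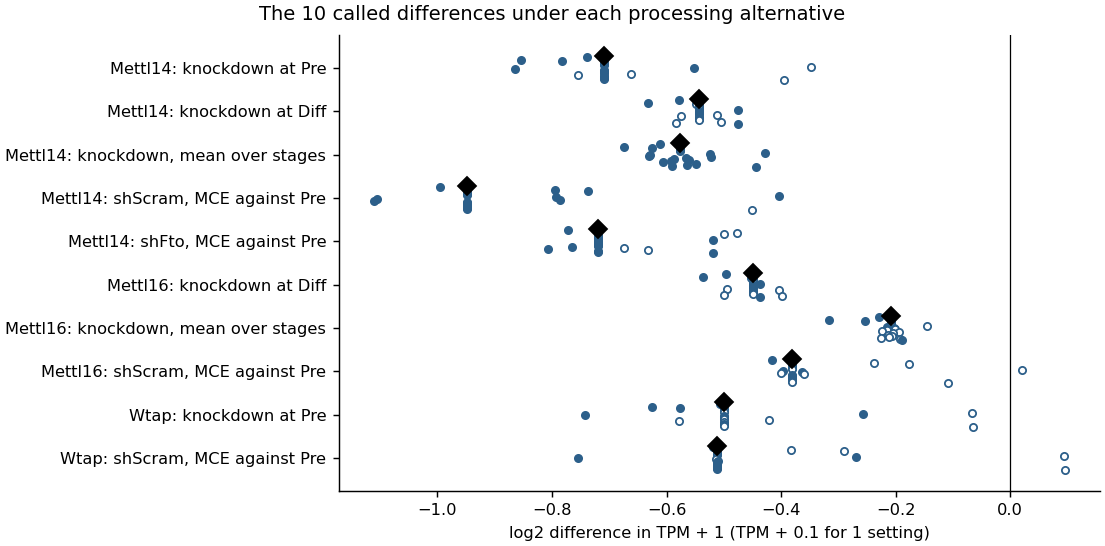
The 10 called member differences (y axis) as log2 differences (x axis) under each processing alternative, with black diamonds for the reported values, filled points for an adjusted p under 0.05 and open points for the rest. Mettl14 in the mean over stages is filled throughout, from -0.67 to -0.43, while Wtap and Mettl16 from Pre to MCE in shScram cells cross 0 under the GC correction.

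Genes elsewhere in the m6A pathway were counted as whole lists in the mean over stages, where 42.8% of all tested genes were called. Of the 2 erasers, Fto was lower and Alkbh5, the other m6A demethylase, was higher in shFto cells. Alkbh5 lay between 37.2 and 63.1 TPM in all shScram libraries, below the 64.3 to 103 TPM of the shFto libraries, and its log2 difference was 0.63 (SE 0.107, adjusted p = 0.00181), or 0.53 without replicate 1 of shScram at Pre. The call held under all 22 alternatives.

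Of the 10 readers, which bind m6A-marked RNA, 5 were called in the mean over stages beside that 42.8%, 2 of them higher and 3 lower. Ythdf1 was at 0.49 (adjusted p = 0.00295) and Igf2bp1 at 0.53 (adjusted p = 0.0205), whereas Ythdf3 was at -0.49 (adjusted p = 0.00632), Hnrnpa2b1 at -0.36 (adjusted p = 0.0139) and Ythdf2 at -0.21 (adjusted p = 0.0350). With replicate 1 of shScram at Pre left out, these were 0.41, 0.37, -0.42, -0.28 and -0.19, all called. The 3 YTHDF paralogs thus did not move in 1 direction, also under both scaling alternatives. The Ythdf2 call was lost without any 1 of 9 libraries, those of both lines at MCE and Diff and replicate 1 of shFto at Pre (adjusted p 0.0633 to 0.105). The Igf2bp1 call was lost without replicate 2 of shScram at MCE or Diff, replicate 2 of shFto at Pre or Diff, or replicate 1 of shFto at MCE (adjusted p 0.0512 to 0.0588). Of the 5 genes in the list named for other methyltransferases, 0 were called by limma beside the same 42.8%, with 3 at an unadjusted p under 0.05. Once replicate 1 of shScram at Pre was left out, 4 of the 5 were called, Mettl4 (-0.25) and Zcchc4 (-0.21) lower and Pcif1 (0.22) and Trmt112 (0.17) higher, beside 56.6% of all tested genes.

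Of the 3 genes of SAM supply, Mat2a and Mat2b, the latter a regulatory subunit of the same enzyme (-0.36, adjusted p = 0.00764), were called lower. Ahcy, which clears the product of methylation, was called higher (0.76, adjusted p = 0.0133), with 34.2 and 88.9 TPM in the 2 shScram Pre libraries. Leaving out replicate 1 of that group, Ahcy was at 0.53, Mat2a at -0.61 and Mat2b at -0.42, all called. Among the other methyltransferases, Zcchc4, which methylates ribosomal RNA, was lower at MCE than at Pre in both lines, by -0.81 in shScram (adjusted p = 0.00295) and -1.09 in shFto cells (adjusted p = 0.000692). It was higher again at Diff than at MCE, by 0.61 (adjusted p = 0.0166) and 0.70 (adjusted p = 0.00839). These rises were lost under quantile normalization (adjusted p 0.123 and 0.0589), in shScram cells also under median-ratio scaling (adjusted p = 0.0898), and without any 1 of the 4 shScram libraries at MCE and Diff (0.0504 to 0.112) or, in shFto cells, without replicate 1 or 2 at MCE or replicate 2 at Diff (0.0504 to 0.0765).

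Likeness of profile was measured as the root mean square difference of log2(TPM + 1), centred on each gene's mean over the 12 libraries, among 10799 other genes with a mean TPM of 5 or more. Nearest to Mettl14 were Nol7 (0.131), Prkci (0.131) and Gpr89 (0.142), where the median over all compared genes was 0.601. Nearest to Mettl3 were Brap (0.057), Rwdd4a (0.059) and Ptdss1 (0.086), with a median of 0.434. Nearest to Wtap were Metap1 (0.063), Capza1-ps1 (0.074) and Oga (0.074), with a median of 0.467. These profiles share the libraries and their scaling, and include replicate 1 of shScram at Pre. No other member was among the 3 nearest genes of these 3 members.

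Positions of the members are given on GRCm38. Rbm15 (3:107325421-107333673) and Mettl14 (3:123368297-123386108) share chromosome 3, and Mettl3 (14:52294841-52305128) and Zc3h13 (14:75284373-75344426) share chromosome 14. Virma is at 4:11485958-11550684, Rbm15b at 9:106880918-106887428, Mettl16 at 11:74770830-74828525, Cbll1 at 12:31484829-31499616 and Wtap at 17:12966796-12994169. Rbm15, Mettl14, Mettl16, Zc3h13 and Wtap overlapped no other annotated gene.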

How the data were processed

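RNA-seq was analysed in 12 libraries. The paper describes its RNA-seq as input of MeRIP-seq, from total RNA that was fragmented and selected by size on a gel. It names rhein-treated cells there, so whether this holds for the hairpin libraries is uncertain. Titles gave each library its group. Replicate 1 of shScram at Diff has the knockdown in its treatment field, and its title was used. Reads had been trimmed by the authors with Trim Galore 0.6.5 and aligned with HISAT2 2.1.0 to GRCm38. StringTie 2.1.4 with Ensembl release 102 then gave the deposited TPM per gene. DESeq2 1.30.1, which the labels list, was run by the authors on counts not used here. Because TPM carries no depth, depth is unknown here, and precision is limited by 2 libraries a group. Between 20853 and 24018 genes were above 0 in a library.

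The analysis used log2(TPM + 1) and kept genes that reached a TPM of 1 in 2 or more libraries. A limma model (3.58.1, R 4.3.3) with the 6 group means was fitted to all 12 libraries, its variances moderated with a trend, and two-sided p-values were adjusted by Benjamini-Hochberg over 15968 genes. A call is an adjusted p under 0.05. Fold changes on this scale understate the change of low genes. The fit was tested on simulated data with known changes. An exact permutation within stages was used for Fto. Python 3.11.15, numpy 2.4.6, pandas 2.3.3, scipy 1.17.1 and matplotlib 3.10.9 were used for summaries. GENCODE M21 gave coordinates and the GC content of 15928 tested genes.

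The named genes are the 9 members, the whole lists of erasers, readers, other methyltransferases and SAM supply, and the 3 genes nearest in profile to Mettl3, Mettl14 and Wtap. Members and lists were chosen with earlier results of these data known. Alternatives were a pseudocount of 0.1, no filter or a mean TPM of 5 or more, quantile and median-ratio scaling, other eBayes settings, fewer libraries, the replicate number as a block, a GC correction, the fold and p thresholds of the study (over 2 or under 0.5) and each library left out. The GC correction without replicate 1 of shScram at Pre was added after seeing the data. Library pairs with identical values numbered 0.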

Additional observations from a re-analysis of the deposited data

How the results depend on the processing

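The counts of called members, out of 9, moved with the settings. They are given in the order knockdown at Pre, MCE, Diff and in the mean, shScram and shFto from Pre to MCE, shScram and shFto from MCE to Diff, and the difference between lines in these steps. As reported they were 2, 0, 2, 2, 3, 1, 0, 0, 0 and 0. Leaving out 1 library at a time gave 0 to 5, 0 to 2, 0 to 6, 1 to 6, 1 to 7, 0 to 3, 0 to 3, 0 to 4, 0 to 5 and 0 to 3 (an arm left with 1 library was assumed to vary like the other groups). Without both shScram Pre libraries the counts became 2 for the knockdown at MCE, 6 at Diff, 3 for shFto from Pre to MCE, 3 and 4 for shScram and shFto from MCE to Diff and 3 for the difference between lines in that step. With the libraries of the contrast alone they became 0 for the knockdown at Pre, 0 and 3 for shScram and shFto from Pre to MCE, 3 for shFto from MCE to Diff and 2 for the difference between lines in that step, and the mean over stages had no such fit. With the GC correction they became 2 for the knockdown at MCE, 4 at Diff, 5 for shFto from Pre to MCE and 2 and 7 for shScram and shFto from MCE to Diff. At Pre the count stayed at 2 under this correction, but of Cbll1 and Zc3h13. In the mean it was 3, of Cbll1, Mettl14 and Mettl3, without Mettl16. With that correction and without replicate 1 of shScram at Pre they became 1, 2, 5 and 6 for the knockdown at Pre, MCE, Diff and in the mean, 5 for shFto from Pre to MCE, 3 and 8 for shScram and shFto from MCE to Diff and 3 for the difference between lines in that step. Quantile normalization gave 4 for the mean, 0 for shFto from Pre to MCE and 1 and 2 for shScram and shFto from MCE to Diff. Median-ratio scaling gave 1 for the knockdown at Diff and 1 and 3 for shScram and shFto from MCE to Diff. No filter gave 1 for the knockdown at Pre and 1 for shFto from MCE to Diff, and eBayes without a trend gave 1 for the knockdown at Pre. The fold and p thresholds of the study gave 0 in all 10 comparisons. For the changes under scaling, GC correction and the filter the cause was not tested.

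Replicate numbers did not pair the libraries (correlations of replicate differences between groups from -0.29 to 0.172). With the replicate number as a block the counts were 1 at Pre, 0 at Diff, 1 in the mean and 2 for shScram from Pre to MCE, and the other counts were the same. The 10 called member values had 231 values under alternatives, of which 151 stayed called in the same direction, 77 kept the direction without a call and 3 reversed. The reversed values were Mettl16 from Pre to MCE in shScram cells at 0.021 and Wtap in the same step at 0.094 with the GC correction, and Wtap at 0.096 with that correction and without replicate 1 of shScram at Pre. Of the 80 member values that were not called, 37 changed sign and 45 were called under at least 1 alternative. The Fto difference stayed between -3.26 and -3.07, with the smallest p each design allows. TPM gives no depth, so it cannot be said which differences depth limits.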
